A study of Mus musculus with 88 samples.

Results

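Gene expression was described in the transplanted mouse tumour SCCVII at day 1 after carbon ions. Of the 88 arrays of the study, 4 were chosen by their titles: 2 arrays of SCCVII tumours taken at day 1 after a single 30 Gy dose of carbon ions, and 2 arrays of untreated SCCVII tumours of the same carbon-ion arm. The labels call SCCVII a squamous cell carcinoma of spontaneous origin in a C3H/He mouse. All tumours of the study, irradiated or not, grew in the hind legs of C3H/HeNrs mice after transplantation, and no genetic change or drug is given for any group. The arrays set beside these 4 were SCCVII at 6 h and day 3 after 30 Gy of carbon ions, SCCVII at day 1 after 30 Gy of gamma rays with the untreated tumours of the gamma arm, and the day 1 and untreated arrays of the tumours NR-S1, NFSa and #8520 in the carbon-ion arm, with 2 arrays in each group. NR-S1 is labelled a spontaneous squamous cell carcinoma, NFSa a spontaneous fibrosarcoma and #8520 a radiation-induced fibrosarcoma. The sources used here give no age, sex or number of animals. Nor do they tell whether paired arrays come from different mice, so each p-value covers the spread between arrays only, and 2 arrays a group limit its precision.

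Dense ionisation along the track of a carbon ion leaves clustered DNA breaks, and the tumour suppressor p53 answers such damage by switching on genes that hold the cell cycle or start cell death. Injured tissue releases CXC chemokines, which draw neutrophils out of the blood. Cytotoxic T and NK cells carry granzymes and perforin, and the interferon gamma they secrete switches on guanylate-binding proteins and immunity-related GTPases in the cells around them. The genes of cholesterol synthesis share the transcription factor SREBP2 and tend to change together with the cell's sterol supply.

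Total RNA was labelled in a single colour and hybridised to CodeLink oligonucleotide arrays. Each value is a deposited intensity, and the median probe of an array lay close to 1. The medians were 1.05 on each day 1 array, and 1.04 and 1.05 on the untreated arrays. Such medians point to a scaling of each array, which the labels and file headers do not describe. Arrays of a group correlated at 0.9975 at day 1 and at 0.994 in untreated tumours over the 13465 genes tested. The deposited values carry no detection flags and no source used here gives their background rule, so the fold change of a dim gene depends on an unknown step. Epithelial markers differed in level. Krt5 and Krt14, keratins of basal squamous cells, had intensities of 0.352, 0.357 and of 0.204, 0.140 at day 1, against 0.339, 0.351 and 0.220, 0.102 in untreated tumours, all below the 25th percentile of the 4 arrays (0.421). Sfn, an epithelial member of the 14-3-3 family, and Itgb4, the hemidesmosome integrin, were bright, at 14.6, 13.93 and 23.18, 22.99 at day 1 against 17.39, 15.58 and 16.85, 16.2 in untreated tumours. The keratins Krt16, Krt6a and Krt4 lay between 3.341 and 6.935 on the 4 arrays. The untreated tumours of the carbon-ion arm also differed from those of the gamma arm, with 6239 of 13460 genes called (46.4% called; 18.7% higher, 27.6% lower). For most named genes whose difference moved more than 1.5-fold with that choice of untreated arrays, the value against the untreated arrays of both arms is given as well.

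At day 1, 3881 of 13435 genes differed from untreated SCCVII tumours of the same arm (limma, Benjamini-Hochberg adjusted p under 0.05, 28.9% called), 2396 of them higher (17.8% called) and 1485 lower (11.1% called). Against the untreated arrays of both arms 5846 were called, 2897 higher and 2949 lower. A change of 2-fold or more was called for 279 genes up (2.08%) and 48 genes down (0.357%). The 15 largest rises by the naming rule were those of Cxcl2, Cxcl3, Gzmf, Gzmg, Gzme, Myl2, S100a9, Gzmd, Sln, Il1b, Saa3, S100a8, Cyp2f2, Myh8 and Cxcl5. Cyp2f2, a cytochrome P450 that belongs to none of the lists, measured 2.10 and 2.24 at day 1 against 0.381 and 0.255 in untreated tumours (6.96-fold). Retnla, a secreted protein of alternatively activated macrophages, had the largest fall, followed by the same rule by Cyp51 and Idi1 of sterol synthesis. The values of 15 such genes on every array are drawn in the plot of single-array intensities. The median log2 difference of all genes was 0.026. It moved to -0.094 when each array was centred on its own median, which turned the split into 1527 higher and 2941 lower, and to -0.03 with quantile normalization, with 1951 higher and 2159 lower, so that small differences have no settled direction.

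**Figure D1:**
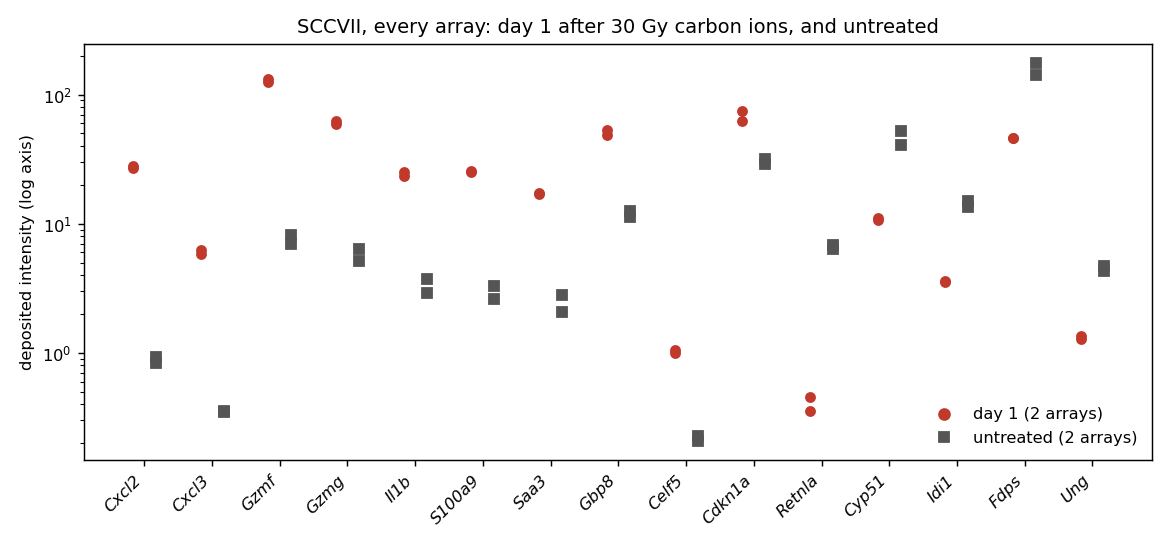
Deposited intensity (log axis) of 15 genes on the 2 SCCVII arrays of day 1 after 30 Gy carbon ions (red circles) and the 2 untreated arrays of the same arm (grey squares), 1 point per array. Cxcl2 stands at 27.0 and 27.7 at day 1 against 0.840 and 0.932 untreated, while Cyp51 stands at 11.2 and 10.7 against 52.2 and 40.9.

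Chemokines that attract neutrophils held the 2 highest fold changes. Cxcl2, a ligand of the neutrophil receptor Cxcr2, had intensities of 27.0 and 27.7 at day 1, against 0.840 and 0.932 in untreated tumours. Both day 1 arrays were far above both untreated arrays, and the difference was 4.95 on the log2 scale (SE 0.16, 30.9-fold, limma adjusted p = 5.5e-31). Cxcl3, another ligand of Cxcr2, measured 5.88 and 6.24 at day 1 against 0.351 and 0.357 in untreated tumours, a log2 difference of 4.10 (SE 0.125, 17.1-fold, adjusted p = 5.2e-32), or 4.95 against the untreated arrays of both arms. Its groups stood equally apart, although the untreated arrays lay at the dim end of the scale. Cxcl5 reached 2.38 and 2.58 against 0.453 and 0.361 in untreated tumours (6.12-fold; log2 difference 3.20 against both arms), and Cxcl1 reached 2.90 and 3.03 against 1.33 and 1.33 (2.23-fold). Il1b, an inflammatory cytokine, measured 24.9 and 23.3 at day 1 against 2.91 and 3.73 in untreated tumours (log2 difference 2.87, SE 0.148, 7.32-fold, adjusted p = 2.6e-22). Of the 11 members of the list of CXC chemokines and neutrophil attraction, all tested, 8 rose and 0 fell, with a median log2 difference of 2.04, beside 17.8% of all genes called higher. Ppbp, a platelet chemokine, and Il1r2, the decoy receptor of interleukin 1, were among the 8 at 2.04 and 2.36 on the log2 scale. Csf3, the growth factor of neutrophils, differed by 0.18, the lung chemokine Cxcl15 by 0.12 and Cxcr2 by -0.34, none of them called; Csf3 was called against both arms (0.23, adjusted p = 0.0084).

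The promoters of the neutrophil chemokines are shown because the members with the NF-kB motif include Cxcl2 and Cxcl3, the genes with the largest changes. The letters GGG and TTTCC with any 2 bases between them were searched on both strands, from 250 bases upstream of the RefSeq start to 50 bases downstream, and were found in 3 of the 9 list members with a promoter sequence, namely Cxcl1, Cxcl2 and Cxcl3, and in 1.89% of the 27025 genes with a promoter. No other motif searched overlapped these sites. The stretches below are the 110 bases upstream of each start in RefSeq GRCm38.p6, plus strand, with the matches in capitals: Cxcl2 at chr5:90903789-90903898, Cxcl3 at chr5:90785991-90786100 and Cxcl1 at chr5:90891135-90891244.
Cxcl2: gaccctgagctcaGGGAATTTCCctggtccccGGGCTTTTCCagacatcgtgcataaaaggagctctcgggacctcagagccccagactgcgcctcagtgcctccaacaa
Cxcl3: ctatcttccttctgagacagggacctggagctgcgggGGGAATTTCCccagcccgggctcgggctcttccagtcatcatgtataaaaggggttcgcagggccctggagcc
Cxcl1: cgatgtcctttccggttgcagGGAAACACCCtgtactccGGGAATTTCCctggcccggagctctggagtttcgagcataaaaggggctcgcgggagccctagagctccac

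Genes of neutrophils themselves rose in part. S100a9, a calcium-binding protein stored in neutrophils and monocytes, had intensities of 25.44 and 25.03 at day 1, against 2.62 and 3.28 in untreated tumours. The 2 groups were far apart, with a log2 difference of 3.10 (SE 0.115, 8.6-fold, adjusted p = 1.3e-28). Against the untreated arrays of both arms that difference was 4.36, and S100a9 was at 0.493 and 0.543 in the untreated gamma arm. Its partner S100a8 rose 6.98-fold, with a log2 difference of 2.80, or 3.59 against both arms. Of 25 neutrophil markers 14 were tested; 8 rose and 0 fell (17.8% of all genes called higher), and the median log2 difference was 0.61. The summed intensity of the 19 markers with a probe was 153 to 162 at day 1 and 61.6 to 63.0 in untreated tumours. Elane, Mpo, Camp and Cxcr1, further neutrophil genes, did not pass the filter on dim genes and missing values and were not tested. The granule gene Mmp8 rose by 0.79 on the log2 scale (1.39 against both arms), and Ltf, another granule gene, measured 0.660 at day 1 array 1 and 0.793 at untreated array 1 and was not called. In bulk tumour RNA, fewer or more cells of a type and less or more RNA per cell cannot be told apart.

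Acute phase and inflammatory cytokine genes moved in the same direction, with 15 of 21 tested members higher, 0 lower and a median log2 difference of 0.48, beside 17.8% of all genes called higher. Saa3, an acute phase protein made by macrophages and stromal cells, had intensities of 17.01 and 17.15 at day 1 against 2.08 and 2.80 in untreated tumours (7.07-fold, adjusted p = 2.4e-22). Ptx3, a soluble pattern recognition protein, rose 4.84-fold, Orm2, an acute phase plasma protein, 3.56-fold and Il6 1.82-fold. Against both arms the log2 difference of Ptx3 was 3.70 in place of 2.28 and that of Orm2 2.43 in place of 1.83. Of the CC chemokines, which recruit monocytes, lymphocytes and eosinophils, 9 of 15 rose and 1 fell (median 0.39; 17.8% of all genes called higher, 11.1% lower). Ccl3 rose 4.17-fold, the eosinophil attractant Ccl11 3.63-fold and Ccl5 1.89-fold, while Ccl17, made by dendritic cells, fell by 0.51 on the log2 scale and was not called against both arms (-0.26, adjusted p = 0.052).

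Every tested member of the interferon gamma list rose. The list held 24 genes, of which 21 were tested; 21 were higher and 0 lower (17.8% of all genes called higher), their median log2 difference was 1.05, and single members ranged from 0.38 to 2.10. Gbp8, a guanylate-binding protein, had intensities of 48.2 and 53.3 at day 1, against 11.2 and 12.5 in untreated tumours. The day 1 arrays were both several-fold above the untreated ones, and the log2 difference was 2.10 (SE 0.118, 4.28-fold, adjusted p = 5.7e-21). Calhm6, a membrane channel of activated macrophages, measured 30.5 and 34.9 against 7.62 and 8.08 in untreated tumours (4.16-fold, adjusted p = 6.6e-17), and Igtp, an immunity-related GTPase, 31.4 and 33.3 against 8.69 and 11.5 (3.23-fold, adjusted p = 6.1e-20). The groups did not overlap for either gene. Ido1, which degrades tryptophan, rose 3.00-fold, Gbp4 2.87-fold, Gbp6 2.79-fold and the T cell attractant Cxcl9 2.22-fold. Cxcl10 at 1.58-fold, the inducible nitric oxide synthase Nos2 at 1.40-fold and the transcription factor Irf1 at 1.30-fold changed least among those named. Ifng itself, the gene of the cytokine, did not pass the filter on dim genes and missing values over the 88 arrays and was not tested. It measured 2.58 and 2.84 at day 1 against 0.551 and 0.516 in untreated tumours.

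Promoters of interferon gamma targets are shown for Igtp, its chromosomal neighbour Irgm2 and Calhm6. The interferon response element, GAAA and GAAA with any 2 bases between them, searched on both strands over the same window, was found in 10 of the 14 list members with a promoter sequence, against 3.99% of the 27025 genes. No other motif searched overlapped the marked sites. The 110 bases upstream of the start (RefSeq GRCm38.p6) lie at chr11:58199446-58199555 for Igtp and chr11:58214867-58214976 for Irgm2, both on the plus strand, and at chr10:34127973-34128082 on the minus strand for Calhm6, with the element in capitals.
Igtp: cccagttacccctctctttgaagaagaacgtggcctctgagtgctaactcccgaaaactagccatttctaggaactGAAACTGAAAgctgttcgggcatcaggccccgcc
Irgm2: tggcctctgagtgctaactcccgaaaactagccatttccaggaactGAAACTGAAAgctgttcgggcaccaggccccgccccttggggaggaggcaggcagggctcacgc
Calhm6: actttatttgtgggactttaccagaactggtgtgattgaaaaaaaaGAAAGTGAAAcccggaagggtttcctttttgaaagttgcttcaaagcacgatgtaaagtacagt

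Interferon-stimulated genes of the antiviral type rose as well, 18 of 29 tested and 0 lower, with a median log2 difference of 0.48, beside 17.8% of all genes called higher. Irf7, the transcription factor that amplifies type I interferon, measured 73.5 and 82.4 at day 1 against 25.9 and 24.0 in untreated tumours (3.12-fold, adjusted p = 3e-19). Mx2, an antiviral GTPase, rose 2.73-fold, Slfn4 2.75-fold and Ifit1, which binds viral RNA, 2.31-fold. Zbp1, a sensor of nucleic acids, measured 47.6 and 52.6 at day 1 against 19.9 on the 1 untreated array with a value (2.51-fold). The interferon response element was found in 11 of the 22 members with a promoter sequence, against 3.99% of the 27025 genes.

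Genes of antigen presentation followed in part, beside 17.8% of all genes called higher and 11.1% called lower. Of 14 tested genes of MHC class I antigen processing 9 rose and 0 fell, with the peptide transporter Tap1 at 1.76-fold. This count fell to 5 without day 1 array 1, 4 without day 1 array 2 and 5 without untreated array 2. With the untreated arrays of both arms 9 class I genes rose and 2 fell. Markers of MHC class II and dendritic cells were divided, with 5 of 18 higher, 4 lower and a median that rounded to 0. H2-Ab1 and Cd74, both of the class II pathway, rose 1.94-fold and 1.77-fold, although H2-Ab1 was not called when its probes were averaged (log2 difference 0.37, adjusted p = 0.41). Cd209a, a lectin of dendritic cells, and Siglech, of plasmacytoid dendritic cells, fell by 0.87 and 0.81 on the log2 scale, and Siglech was not called against the untreated arrays of both arms (-0.17) or without untreated array 1 (-0.64).

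Cytotoxic granule genes were higher at day 1 too. Gzmf, a serine protease of activated cytotoxic cells, had intensities of 126 and 131 at day 1, against 8.19 and 6.91 in untreated tumours. The log2 difference was 4.09 (SE 0.197, 17.1-fold, adjusted p = 1.1e-23), with both day 1 arrays far above both untreated ones. Its relatives Gzmg, Gzme and Gzmd rose 10.6-fold, 10.3-fold and 8.59-fold. These were smaller against the untreated arrays of both arms, at 3.03 for Gzmf, 2.48 for Gzmg, 2.63 for Gzme and 1.99 for Gzmd on the log2 scale, and the untreated gamma arm had 30.7 and 35.4 for Gzmf. Gzma, the main granzyme of NK cells and cytotoxic T cells, measured 22.8 and 24.8 at day 1 against 6.62 and 7.43 in untreated tumours (log2 difference 1.76, 3.39-fold, adjusted p = 4e-15), and 0.99 against both arms. Gzmb rose 3.09-fold (log2 difference 1.63, and 0.96 against both arms), Prf1, the pore-forming perforin, 2.96-fold and the granule protein Nkg7 2.54-fold. Of 27 T and NK cell markers 17 were tested; 10 rose and 1 fell (17.8% of all genes called higher), the median log2 difference was 0.52, and the summed intensity of the 25 with a probe was 98.9 to 104 at day 1 and 58.1 to 60.3 in untreated tumours. Among the defining markers, the CD8 chain Cd8b1 rose 2.19-fold and the T cell receptor chain Cd3d 1.79-fold, and Cd4 fell by 0.29 on the log2 scale but was not called against both arms (-0.07, adjusted p = 0.55). Foxp3 of regulatory T cells differed by -0.14 and Ncr1 of NK cells by -0.27, neither called; against both arms Ncr1 was called lower (-0.80, adjusted p = 3.3e-06). Cd8a, not tested, measured 2.94 and 3.01 at day 1 against 0.808 and 0.648 in untreated tumours.

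Gzmf, Gzmg, Gzme and Gzmd are neighbouring copies on chromosome 14 and a probe for 1 of them may also bind another, which was not tested, so their 4 values are uncertain as separate measurements. The stretch below shows how alike their upstream regions are: 99 bases around the longest run shared by all 4 (36 bases), with the 9 positions that differ among them in capitals. Over 250 upstream bases Gzme and Gzmd were 94.8% identical and Gzmf and Gzmg 83.2%, against 48.2% to 52.0% for each of the 4 with Gzmb. In RefSeq GRCm38.p6 the stretches lie on the minus strand at chr14:56211429-56211527 for Gzmf, chr14:56159596-56159694 for Gzmg, chr14:56120627-56120725 for Gzme and chr14:56132594-56132692 for Gzmd.
Gzmf: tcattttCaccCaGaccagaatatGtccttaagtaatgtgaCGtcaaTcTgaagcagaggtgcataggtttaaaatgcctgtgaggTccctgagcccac
Gzmg: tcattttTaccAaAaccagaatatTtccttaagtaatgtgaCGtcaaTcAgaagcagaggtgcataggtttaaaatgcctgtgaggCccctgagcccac
Gzme: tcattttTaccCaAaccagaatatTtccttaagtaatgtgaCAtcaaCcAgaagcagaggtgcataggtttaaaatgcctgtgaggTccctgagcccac
Gzmd: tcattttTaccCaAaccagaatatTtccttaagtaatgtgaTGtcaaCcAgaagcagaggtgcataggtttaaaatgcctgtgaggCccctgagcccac

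Macrophage markers changed unevenly, with 12 of 27 tested higher, 2 lower and a median log2 difference of 0.24. Of all genes, 17.8% were called higher and 11.1% lower. Marco, a scavenger receptor, measured 13.4 and 14.9 at day 1 against 3.02 and 3.12 in untreated tumours (4.61-fold; log2 difference 2.20, and 2.93 against both arms), the lectin Chil3 rose 4.25-fold, arginase Arg1 2.31-fold and the lysosomal protease Ctsd 1.99-fold. The monocyte receptor Ccr2 and the mannose receptor Mrc1 fell by 0.83 and 0.40. Without day 1 array 2 the count of markers called higher was 7, and when arrays were centred it was 5. Retnla had the largest fall of all genes: 0.456 and 0.357 at day 1, against 6.32 and 6.85 in untreated tumours. The groups were far apart (log2 difference -4.03, SE 0.379, 16.3-fold lower, adjusted p = 2.2e-12), but the untreated gamma arm held only 0.321 and 0.334, and against both arms the difference was -1.86.

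Skeletal muscle markers rose together. Of 35 muscle markers 29 were tested; 27 rose and 1 fell (17.8% of all genes called higher), with a median log2 difference of 1.07. Myl2, the regulatory myosin light chain of slow muscle and heart, had intensities of 5.49 and 6.01 at day 1, against 0.685 and 0.559 in untreated tumours. The day 1 arrays were both well above the untreated ones (log2 difference 3.21, SE 0.18, 9.28-fold, adjusted p = 4.3e-21). Tnni1, the slow troponin I, rose 6.09-fold and Tnnt1, the slow troponin T, 5.25-fold, while the fast forms Tnni2 and Tnnt3 rose 2.09-fold and 2.20-fold. Against both arms the log2 differences of these 4 were 3.81, 3.06, 2.55 and 3.26, in place of 2.61, 2.39, 1.06 and 1.13. Sln, which regulates the muscle calcium pump, rose 7.63-fold and Myh8, the perinatal myosin, 6.76-fold (3.73 and 3.35 on the log2 scale against both arms). Xirp1, an actin-binding protein of muscle, was the member that fell, by 0.79 on the log2 scale. Against the untreated arrays of both arms it was called higher (1.19), and 29 of 29 markers rose and 0 fell. The summed intensity of the 33 markers with a probe was 1561 to 1574 at day 1, 812 to 840 in untreated tumours of the carbon-ion arm and 171 to 188 in untreated tumours of the gamma arm, so the summed muscle signal differed between untreated tumours too. Its part in the other results was not tested.

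Targets of p53 rose in a broad group. Of 45 listed genes 39 were tested; 24 rose and 1 fell (17.8% of all genes called higher), and the median log2 difference was 0.51. The list includes Celf5, Ces2e and Abhd11os, which had been picked from earlier results of these arrays; without them 21 of 36 rose, 1 fell and the median was 0.49. Cdkn1a, the inhibitor that halts the cell cycle, measured 62.6 and 74.0 at day 1 against 31.4 and 28.9 in untreated tumours (2.26-fold, adjusted p = 2.7e-06). Mdm2, the ubiquitin ligase that returns p53 to low levels, measured 10.4 and 9.80 against 4.202 and 3.357 in untreated tumours (2.69-fold, adjusted p = 1.5e-07), and Ccng1 measured 41.4 and 44.4 against 15.4 and 12.6 (3.08-fold, adjusted p = 4.8e-15). For each of these the 2 day 1 arrays were above the 2 untreated ones. Celf5, an RNA-binding protein, rose 4.72-fold and Dcxr, a sugar reductase, 4.06-fold. The death genes Fas and Bbc3 rose 2.12-fold and 1.77-fold and Pmaip1 1.48-fold, and Sesn1, an antioxidant regulator, fell by 0.51 on the log2 scale.

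Of 40 tested genes of G2/M and mitosis 10 rose and 1 fell, with a median log2 difference of 0.18, beside 17.8% of all genes called higher. When each array was centred on its median 6 rose and 3 fell, and against the untreated arrays of both arms 14 rose and 8 fell. Kif20a, a kinesin of cell division, measured 16.0 and 16.4 at day 1 against 9.41 and 8.58 in untreated tumours (1.80-fold, adjusted p = 1.5e-08). Ube2c, which marks mitotic proteins for destruction, rose 1.68-fold and the centromere histone Cenpa 1.44-fold, and Cdca8 fell by 0.35 on the log2 scale. Plk1, the mitotic kinase, measured 1.95 and 1.84 against 1.61 and 1.53 in untreated tumours and was not called (log2 difference 0.27, adjusted p = 0.066; -0.23 against both arms). Of 35 tested genes of DNA replication 0 rose and 14 fell (11.1% of all genes called lower), with a median of -0.29, and the count was 6 without day 1 array 1, 9 without day 1 array 2 and 8 without untreated array 1. Ccne2, a cyclin of S phase entry, was 2.05-fold lower, Tk1, which makes thymidylate, 1.61-fold and the helicase subunit Mcm6 1.56-fold. Of 29 tested DNA repair genes 1 rose and 7 fell (median -0.13), and 13 fell against the untreated arrays of both arms. Ung, which removes uracil from DNA, measured 1.34 and 1.28 at day 1 against 4.32 and 4.67 in untreated tumours, 3.42-fold lower (adjusted p = 9.3e-20), and the glycosylase Neil3 was 1.67-fold lower.

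Sterol synthesis fell almost as a whole. Of 24 listed genes 18 were tested; 0 rose and 16 fell (11.1% of all genes called lower), with a median log2 difference of -1.12. Cyp51, the lanosterol demethylase, had intensities of 11.2 and 10.7 at day 1, against 52.2 and 40.9 in untreated tumours. Both day 1 arrays were well below the untreated ones (log2 difference -2.08, SE 0.103, 4.22-fold lower, adjusted p = 2.8e-23). Idi1, the isomerase of isopentenyl diphosphate, measured 3.52 and 3.61 against 13.57 and 15 in untreated tumours (log2 difference -1.999, SE 0.134, adjusted p = 5.2e-18). Fdps, which makes farnesyl diphosphate, was 3.45-fold lower, Msmo1 3.21-fold, the cyclase Lss 2.76-fold, Hmgcs1, at the entry of the pathway, 2.67-fold and the epoxidase Sqle 2.60-fold. Dhcr7 and Tm7sf2, reductases late in the pathway, differed by 0.14 and -0.25 and were not called, though Tm7sf2 was called against both arms (-0.54). Fatty acid synthesis genes were lower too: of 13 genes 10 fell and 1 rose, with a median of -0.70. Elovl6, which lengthens palmitate, measured 20.0 and 19.0 at day 1 against 66.6 and 62.5 in untreated tumours (3.30-fold lower), Fads2 and Scd2, both desaturases, were 2.07-fold and 2.005-fold lower, and Scd1 was the member that rose, by 0.36 on the log2 scale, though it was not called against both arms (0.13, adjusted p = 0.25).

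The promoters of Idi1, Cyp51 and Lss show the CCAAT box, the binding motif of the factor NF-Y, which works beside SREBP at sterol genes. The letters CCAAT were found on either strand in 15 of the 15 tested members with a promoter sequence, against 41.1% of the 27025 genes. The sterol response element TCACNCCAC was found in 1 of the 15, Hmgcs1, against 1.44%. No other motif searched overlapped the marked boxes. The 110 bases upstream (RefSeq GRCm38.p6) lie at chr13:8885496-8885605, plus strand, for Idi1, chr5:4104698-4104807, minus strand, for Cyp51 and chr10:76531495-76531604, plus strand, for Lss, with the box in capitals.
Idi1: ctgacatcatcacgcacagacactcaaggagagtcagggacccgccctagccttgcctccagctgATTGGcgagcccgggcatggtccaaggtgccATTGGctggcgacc
Cyp51: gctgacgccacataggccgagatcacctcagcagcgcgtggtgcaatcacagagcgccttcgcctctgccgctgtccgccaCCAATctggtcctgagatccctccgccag
Lss: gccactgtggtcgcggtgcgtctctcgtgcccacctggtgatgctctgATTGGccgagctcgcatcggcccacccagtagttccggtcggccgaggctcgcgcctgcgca

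**Figure D2:**
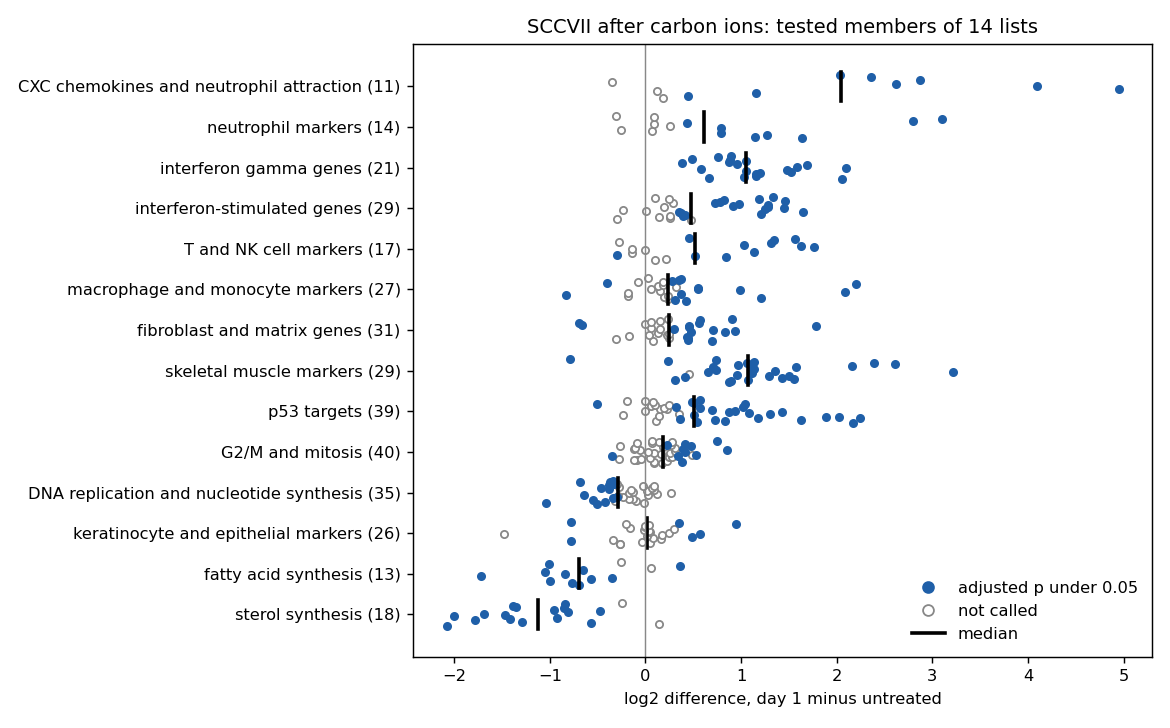
Log2 difference, day 1 minus untreated, of every tested member of 14 gene lists in SCCVII after 30 Gy carbon ions, 1 point per gene, filled where the adjusted p is under 0.05, with the list median as a black bar and the number of tested members in brackets. All 21 interferon gamma genes lie at 0.38 or above, and 16 of 18 sterol genes are called lower.

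Stromal and epithelial markers changed less, beside 17.8% of all genes called higher and 11.1% called lower. Of 31 tested fibroblast and matrix genes 15 rose and 2 fell (median 0.25), led by the proteoglycan Lum at 3.44-fold (log2 difference 1.78, and 2.38 against both arms), while Pdgfrb, the growth factor receptor of pericytes, fell by 0.69, and without untreated array 2 the count higher was 9. Of 21 tested endothelial markers 4 rose and 3 fell, with a median of 0.04 that turned to -0.083 when arrays were centred and to -0.02 with quantile normalization. The sum over the 24 endothelial markers with a probe was 87.7 to 90.2 at day 1 and 86.0 to 90.7 in untreated tumours, so the groups overlapped. Of 26 tested keratinocyte and epithelial markers 4 rose and 2 fell (median 0.02, and -0.09 when arrays were centred, with 3 higher and 5 lower), and the sum over the 35 with a probe, 1 of them without a value on day 1 array 2, was 75.9 to 76.1 at day 1 against 67.5 to 70.9 in untreated tumours. The 4 that rose were Krt16, at 6.222 and 6.935 against 4.737 and 4.118 in untreated tumours, Itgb4, and the cornified envelope genes Sprr1a, at 1.701 and 1.787 against 1.032 and 0.7961, and Sprr1b, at 2.314 and 2.154 against 1.829 and 1.676. Krt16 was not called without day 1 array 2 (log2 difference 0.49, adjusted p = 0.075) or without untreated array 2 (0.47, adjusted p = 0.083). Epcam, an adhesion molecule of epithelia, was at 0.360 and 0.331 against 0.551 and 0.639 in untreated tumours, a fall of 1.72-fold among dim values. Trp63, the squamous master regulator, also fell 1.72-fold (adjusted p = 0.011), but its difference was 0.48 against the untreated arrays of both arms. It was not called without day 1 array 2 (-0.74, adjusted p = 0.071), without untreated array 1 (-0.67, adjusted p = 0.096) or with the mean of its probes (-0.40, adjusted p = 0.23).

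The time course places day 1 between 6 h and day 3 of the same tumour and beam. These comparisons share the day 1 arrays. Against 6 h, 3738 of 13433 genes were called at day 1 (27.8% called), 2047 higher (15.2%) and 1691 lower (12.6%). Against day 1, 2746 of 13432 genes were called at day 3 (20.4% called), 1527 higher (11.4%) and 1219 lower (9.08%).

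Cxcl2 and S100a9 were already raised at 6 h and lower at day 3 than at day 1. Cxcl2 measured 0.840 and 0.932 in untreated tumours, 11.6 and 14.4 at 6 h, 27.0 and 27.7 at day 1 and 1.05 and 1.27 at day 3. The day 1 level was above 6 h (log2 difference 1.08, adjusted p = 4.3e-07), and day 3 was below day 1 by 4.57. S100a9 measured 2.62 and 3.28, 21.5 and 24.6, 25.44 and 25.03, and 1.66 and 1.97 at the same 4 times, with no call between day 1 and 6 h (0.13, adjusted p = 0.41) and a fall by 3.81 at day 3. Of the 11 genes of the CXC chemokine list 6 were lower and 1 higher at day 3 than at day 1. Of all genes, 9.08% were called lower and 11.4% higher in that comparison. Other inflammatory lists differed: 8 of 15 CC chemokines were higher and 3 lower at day 3 (median 0.39), 17 of 27 macrophage markers were higher and 2 lower (median 0.46), and 3 of 21 acute phase genes were higher and 7 lower (median -0.13). Other genes had passed their highest level by day 1: Cxcl1 was 0.82 lower and the p53 target Pmaip1 1.33 lower at day 1 than at 6 h on the log2 scale.

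Gzmf and most muscle markers were higher at day 1 than at 6 h or day 3. Gzmf measured 8.19 and 6.91 in untreated tumours, 3.41 and 3.47 at 6 h, 126 and 131 at day 1 and 40.7 and 41.8 at day 3, so that 6 h was the lowest time and day 1 the highest. Its difference between day 1 and 6 h was 5.22 (SE 0.20, adjusted p = 7.1e-28), the largest of that comparison, followed by Gzmg at 4.62, Gzmd at 4.03 and Gzme at 4.005. Gzma, by contrast, went on to 34.0 and 34.6 at day 3 (0.53 above day 1, adjusted p = 0.0038). Of the 29 muscle markers 28 were higher at day 1 than at 6 h (15.2% of all genes called higher) and 29 were lower at day 3 than at day 1 (9.08% called lower). The medians were 1.49 and -1.56. Pvalb, a calcium buffer of fast muscle, measured 38.4 and 39.1 untreated, 22.98 and 26.92 at 6 h, 82.5 and 85.6 at day 1 and 14.02 and 15.55 at day 3. Xirp1 was higher untreated (7.921 and 6.801) than at day 1 (4.015 and 4.51), and was among the 29 lower at day 3. The 25 T and NK cell markers with a probe, summed, were 58.1 to 60.3 untreated, 57.9 to 60.1 at 6 h, 98.9 to 104 at day 1 and 101 at day 3 on both arrays. Against untreated tumours the T and NK cell list had a median log2 difference of -0.03 at 6 h and 0.52 at day 1. The interferon gamma list was already at 0.96 at 6 h, with 1.05 at day 1.

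Many mitotic genes were low at 6 h. Kif20a measured 9.41 and 8.58 untreated, 4.28 and 4.70 at 6 h, 16.0 and 16.4 at day 1 and 9.64 and 10.4 at day 3. Of 40 genes of G2/M and mitosis 33 were higher at day 1 than at 6 h (15.2% of all genes called higher) and 38 were lower at day 3 than at day 1 (9.08% called lower), with medians of 0.70 and -0.64. Plk1 followed the same course, 0.79 higher at day 1 than at 6 h and 0.56 lower at day 3. The letters TTTGAA of the cell cycle homology region were found in 24 of the 31 members with a promoter sequence, against 20.2% of the 27025 genes. Of 35 replication genes 10 were higher and 0 lower at day 1 than at 6 h, and 24 were lower at day 3 than at day 1. Their medians against untreated tumours were -0.40 at 6 h, -0.29 at day 1 and -0.60 at day 3.

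Sterol genes were mostly lower at day 1 than at 6 h, and interferon-stimulated genes mostly higher at day 3 than at day 1. Cyp51 measured 52.2 and 40.9 untreated, 29.9 and 27.8 at 6 h, 11.2 and 10.7 at day 1 and 6.74 and 7.41 at day 3, each time below the one before. Of 18 sterol genes 16 were lower at day 1 than at 6 h (12.6% of all genes called lower). At day 3, 8 were lower and 1 higher than at day 1 (9.08% called lower, 11.4% higher). Irf7 measured 25.9 and 24.0 untreated, 42.5 and 44.9 at 6 h, 73.5 and 82.4 at day 1 and 252 and 269 at day 3, and 28 of 29 interferon-stimulated genes were higher at day 3 than at day 1 (11.4% of all genes called higher; median 1.47). Between 6 h and day 1 the same list was divided, with 4 higher and 8 lower at day 1 (median -0.01). The interferon gamma list had no such step at day 3, with 3 of 21 higher than at day 1, 4 lower and a median of -0.05. Between 6 h and day 1, 7 of its genes were higher and 2 lower at day 1 (median 0.18). Among the largest rises after day 1 was that of Mmp10. This matrix metalloproteinase measured 1.52 and 1.45 at day 1 and 15.2 and 15.1 at day 3, a log2 difference of 3.35, with the cathepsin Ctsk at 3.06, the phosphatase Acp5 at 2.98 and the sodium exchanger Slc9b2 at 3.21. Of 20 matrix proteases and inhibitors 9 were higher and 5 lower at day 3 than at day 1 (median 0.16).

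**Figure D3:**
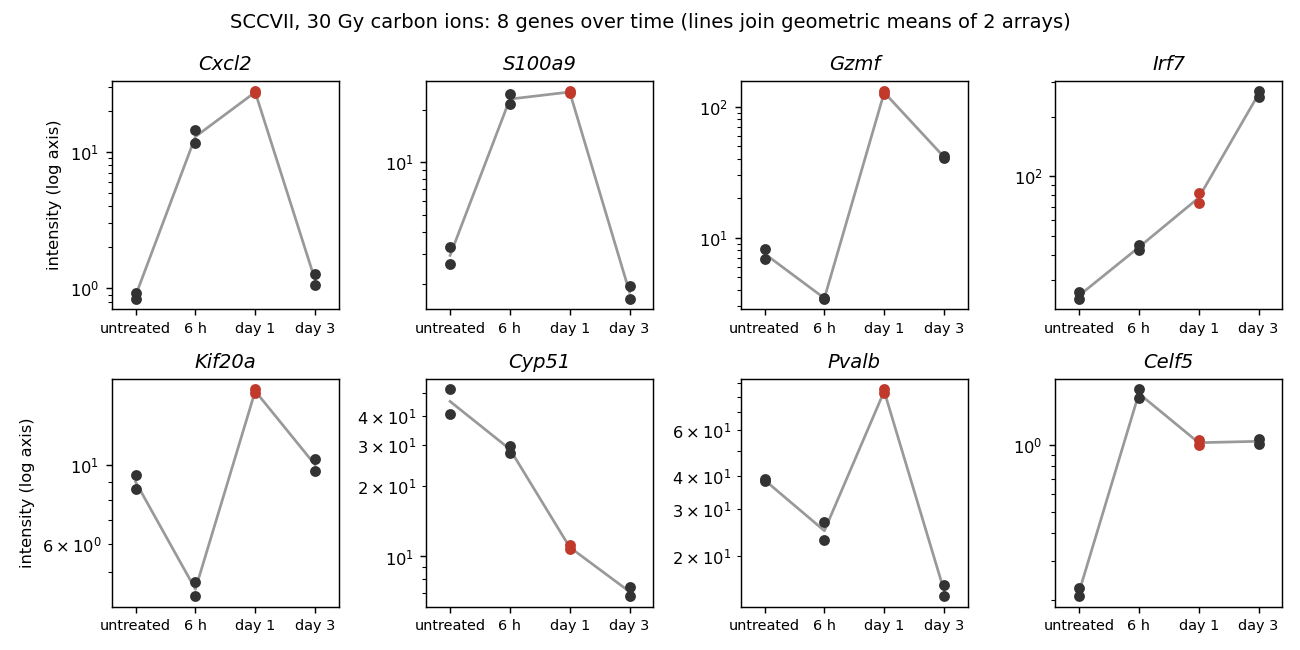
Deposited intensity (log axis) of 8 genes in SCCVII, untreated and at 6 h, day 1 and day 3 after 30 Gy carbon ions, 2 arrays per time as points, with day 1 in red and lines through the geometric means. Gzmf is lowest at 6 h (3.41 and 3.47) and highest at day 1 (126 and 131), Cyp51 is lower at each later time, and Irf7 is highest at day 3 (252 and 269).

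The same dose of gamma rays gave a different day 1 response. The carbon-ion response minus the gamma-ray response, each against the untreated tumours of its own arm, was called for 2090 of 13431 genes (15.6% called), 1058 higher after carbon ions (7.88%) and 1032 lower (7.68%). With the untreated arrays of both arms as a shared baseline, that baseline cancels and the day 1 arrays of the 2 beams are compared directly. In that form 6545 genes were called, 2521 higher and 4024 lower. Beam differences given with both arms below are of this kind and include any difference between the arms before irradiation. The interferon gamma list differed as a whole: 21 of 21 tested genes were higher, with a median log2 difference of response of 1.44, the carbon-ion median being 1.05 and the gamma-ray median -0.45; with both arms 20 were higher and 0 lower. Gbp8 measured 48.2 and 53.3 at day 1 of carbon ions and 11.2 and 12.5 untreated in that arm, and 3.49 and 4.12 at day 1 of gamma rays and 8.04 and 7.64 untreated in the gamma arm. It was higher than untreated after carbon ions and lower than untreated after gamma rays, a difference of response of 3.14 (SE 0.17, adjusted p = 1e-21), and 3.74 with the untreated arrays of both arms. Calhm6 differed by 2.99 and Igtp by 2.27 in the same way (3.26 and 1.66 with both arms). T and NK cell markers were higher in 13 of 17 and lower in 0, with a median of 1.65, and the summed intensity of the 25 with a probe at day 1 was 98.9 to 104 after carbon ions and 40.1 to 40.5 after gamma rays, from untreated sums of 58.1 to 60.3 and 59.8 to 60.4. Cd8b1 differed by 2.23 and Cd3d by 1.77.

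Chemokines differed in size between the beams. In this comparison 7.88% of all genes were called higher and 7.68% lower. Cxcl2 measured 27.0 and 27.7 at day 1 of carbon ions, with 0.840 and 0.932 untreated, and 3.93 and 3.39 at day 1 of gamma rays, with 0.692 and 0.941 untreated. It rose after either beam, and the difference of response was 2.77 (adjusted p = 1.8e-14). Il1b differed by 2.37 and Il1r2 by 2.56 (1.87 for Il1r2 with both arms), and 7 of 11 chemokine genes were higher and 0 lower. Targets of p53 had near equal medians of 0.51 after carbon ions and 0.54 after gamma rays, with 2 of 39 called higher and 1 lower. With both arms, where 2521 of all genes were higher and 4024 lower, 7 were higher and 13 lower. Cdkn1a differed by -0.04 (SE 0.27), Ccng1 by 0.01 (SE 0.18) and Celf5 by 0.03 (SE 0.16), none of them called; with both arms Cdkn1a was called at -0.74 (adjusted p = 0.0012). For sterol synthesis 7 of 18 genes were lower after carbon ions and 0 higher, with medians of -1.12 after carbon ions and -0.67 after gamma rays, and Cyp51 differed by -0.89 (adjusted p = 5.1e-06). Of the mitotic genes 7 of 40 were lower and 0 higher, with medians of 0.18 after carbon ions and 0.45 after gamma rays, and with both arms 29 were lower and 1 higher.

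Some differences between the beams rest on the untreated arrays. Gzmf differed by 3.34 in response, but its untreated tumours stood at 8.19 and 6.91 in the carbon-ion arm and at 30.7 and 35.4 in the gamma arm, and with the untreated arrays of both arms the difference was 1.20. For Retnla, at 1.52 and 1.48 on day 1 of gamma rays, the difference was -6.23, and -1.90 with both arms. Muscle markers were lower in response after carbon ions for 20 of 29 and higher for 3, with a median of -2.12 (7.68% of all genes called lower, 7.88% higher). Their untreated levels were higher in the carbon-ion arm for 26 of 29, with a median of 3.54 (18.7% of all genes called higher). Between the day 1 arrays of the 2 beams compared directly, 27 of 29 markers were higher after carbon ions and 0 lower, with a median of 1.43. Tnnt3 shows it: 72.2 and 80.1 at day 1 of carbon ions, 36.8 and 32.6 untreated in that arm, 41.0 and 41.6 at day 1 of gamma rays and 1.74 and 1.90 untreated in the gamma arm. The muscle genes Fhl1, Csrp3, Car3 and Xirp1 had the next largest negative differences, from -3.99 to -3.67, and were 0.02 to 0.55 with both arms. Ino80b, a subunit of a chromatin remodeller, differed by 3.93 (SE 1.04), with 25.6 and 26.5 in the untreated gamma arm and 1.65 to 2.45 on the other 6 arrays of the comparison.

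**Figure D4:**
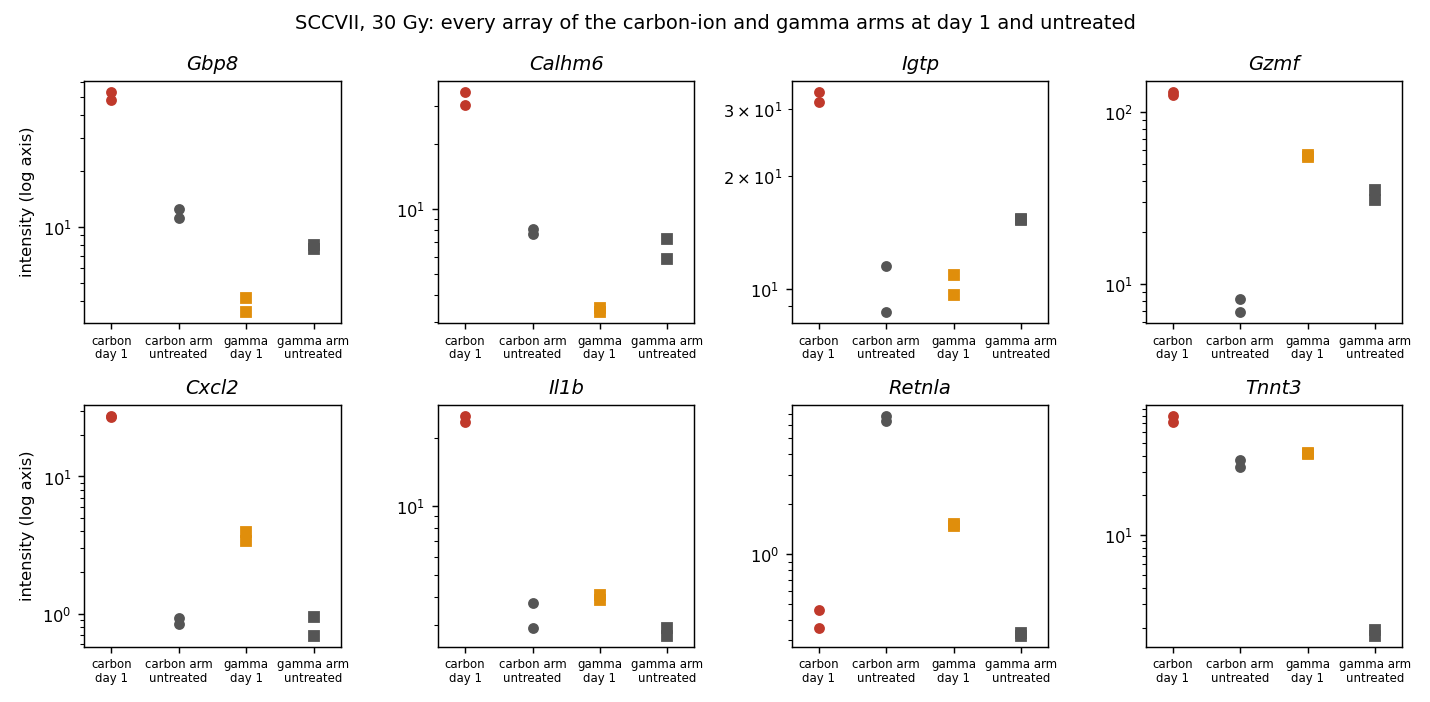
Deposited intensity (log axis) of 8 genes in SCCVII on the 2 arrays each of day 1 after 30 Gy carbon ions, untreated in that arm, day 1 after 30 Gy gamma rays and untreated in the gamma arm. Gbp8, Calhm6 and Igtp are above their untreated arrays after carbon ions and below them after gamma rays, and Tnnt3 is at 1.74 and 1.90 in the untreated gamma arm.

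In the other tumours given carbon ions p53 targets also had positive medians, while immune genes differed from SCCVII. The SCCVII response at day 1 minus the mean response of NR-S1, NFSa and #8520 was called for 3472 of 13417 genes (25.9% called), 1838 higher in SCCVII (13.7%) and 1634 lower (12.2%). With the untreated arrays of both arms 5428 were called, 2137 higher and 3291 lower. Of the 21 interferon gamma genes 21 were higher in SCCVII, with a response median of 1.05 in SCCVII, -0.94 in NR-S1, 0.01 in NFSa and -1.33 in #8520. Igtp differed from untreated by 1.69 in SCCVII, -1.38 in NR-S1, 0.08 in NFSa and -1.74 in #8520 (difference 2.71, adjusted p = 2e-25). Interferon-stimulated genes were higher in SCCVII for 21 of 29 and lower for 0, and Irf7 differed from untreated by 1.64 in SCCVII, -0.67 in NR-S1, -0.31 in NFSa and 0.04 in #8520. Gzmf rose by 4.09 in SCCVII and differed from untreated by -0.53 in NR-S1, -0.96 in NFSa and -1.08 in #8520, a difference of 4.95 (SE 0.23, adjusted p = 2.1e-24), or 3.90 with the untreated arrays of both arms. T and NK cell markers were higher in SCCVII for 11 of 17 and lower for 0.

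Neutrophil genes did not follow that order. S100a9 rose by 3.10 in SCCVII, 0.65 in NR-S1, 4.37 in NFSa and 4.47 in #8520, and SCCVII was not called different from the mean of the others (-0.06, adjusted p = 0.78), but was called higher with both arms (1.65). Of 14 neutrophil markers 2 were higher and 8 lower in SCCVII, beside 13.7% of all genes called higher and 12.2% lower. With both arms 6 were higher and 5 lower, beside 2137 and 3291 of all genes. Retnlg, a protein of neutrophils, changed by 0.43 in SCCVII (1.10 against both arms), 0.81 in NR-S1, 4.19 in NFSa and 4.74 in #8520 (difference -2.81, or -1.88 with both arms). Cxcl2 rose in all 4 tumours, by 4.95 in SCCVII, 1.03 in NR-S1, 1.45 in NFSa and 3.59 in #8520. Its difference was 2.92 (adjusted p = 1.1e-18), and that of Cxcl3 was 3.05 (4.46 with both arms).

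Of 39 p53 targets 13 were lower in SCCVII than in the mean of the others and 3 higher, beside 12.2% of all genes called lower and 13.7% higher. Their response medians were 0.51 in SCCVII, 0.77 in NR-S1, 0.70 in NFSa and 0.78 in #8520. Cdkn1a rose by 1.18 in SCCVII, 0.90 in NR-S1, 1.07 in NFSa and 1.38 in #8520 and was not called different (0.06, SE 0.22). Sterol synthesis had medians of -1.12 in SCCVII, -0.10 in NR-S1, -0.78 in NFSa and -1.23 in #8520, and 11 of 18 genes were lower in SCCVII than in the mean of the others. Muscle markers had response medians of 1.07 in SCCVII, 0.11 in NR-S1, 0.98 in NFSa and -0.13 in #8520. Myl2 had the largest positive difference from the other tumours, at 3.21 in SCCVII, -1.64 in NR-S1, -2.42 in NFSa and -1.39 in #8520 (difference 5.03, adjusted p = 3e-26), and Tnni1 and Tnnc1 differed by 4.41 and 4.21 (5.34 for Tnni1 with both arms). No source used here gives how much leg muscle each tumour sample held.

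**Figure D5:**
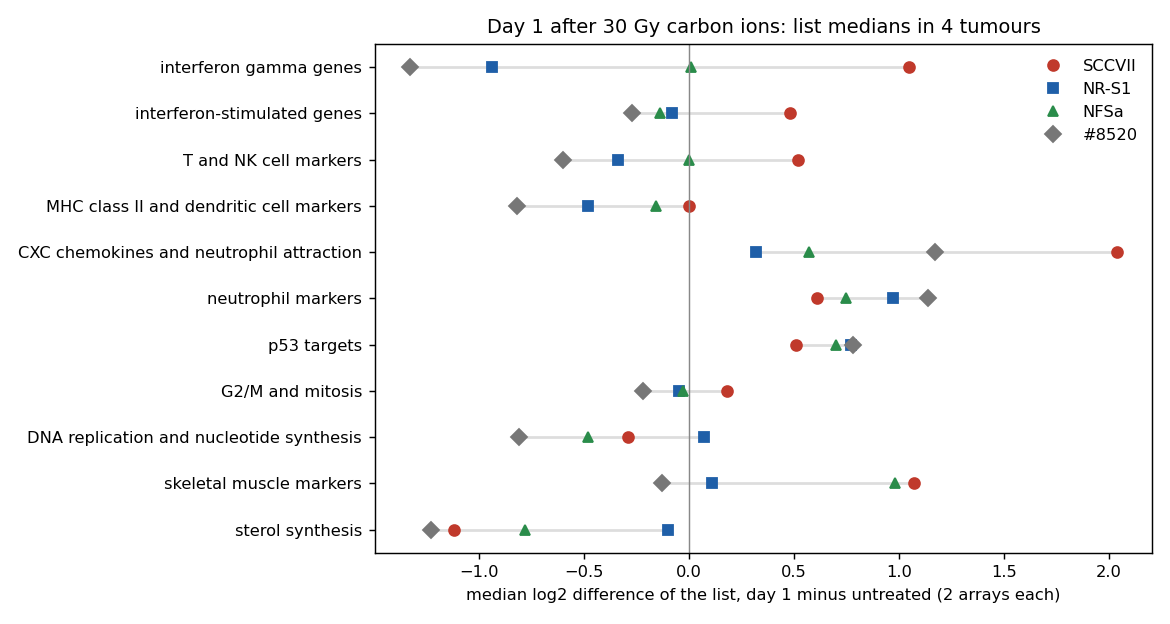
Median log2 difference, day 1 minus untreated, of gene lists in SCCVII and 3 other tumours after 30 Gy carbon ions, 1 point per tumour (SCCVII as red circles), from 2 arrays a group. The interferon gamma list lies at 1.05 in SCCVII, -0.94 in NR-S1, 0.01 in NFSa and -1.33 in #8520, while the p53 list lies between 0.51 and 0.78 in all 4.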

How the data were processed

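The study measured total RNA of transplanted mouse tumours on 88 one-colour CodeLink arrays in 44 groups of 2, all grouped by their titles. The intensity values were used as deposited. Each array's median lies near 1, which points to scaling of every array. The background and scaling steps are not given in the labels or file headers. Of 36227 probes, 21615 carried 1 gene symbol (681 had several and 13931 none, and these were left out), and 21487 symbols were updated by Entrez identifier, which gave 18069 genes. Values at or below 0 (0.149%) were set missing, beside 0.751% without a value. For a gene with several probes (3002 genes) the probe with the highest mean over all arrays was taken. Genes in the lowest 25% of mean log2 intensity, or with values on under 80% of arrays, were left out, leaving 13465.

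Log2 intensities were fitted once over all 88 arrays with limma 3.58.1 in R 4.3.3 (44 residual degrees of freedom, prior 7.3), so that all groups share one estimate of the spread. Contrasts were tested two-sided with Benjamini-Hochberg adjustment over all genes, and a call is an adjusted p under 0.05. On simulated data for day 1 against untreated (10604 genes), 22.4% of genes changed 1.25-fold, 82.1% changed 1.5-fold and 100% changed 2-fold were recovered. There were 5 false among 142 calls. Noise was drawn independently for each gene, with none shared across an array, and 67 genes were changed at each fold. In the data 28.9% of genes were called, so the share of false calls there was not measured.

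The labels do not say whether replicate numbers pair the arrays. Deviations of same-numbered arrays correlated at -0.193 between day 1 and untreated, 0.275 between 6 h and untreated and -0.064 between day 3 and untreated. These values alone cannot settle the pairing. The arrays and the 31 gene lists were chosen with earlier results of these data known. Genes were named by rule: the 15 largest called changes each way for day 1 against untreated with groups that did not overlap and the brighter group above the 25th percentile (0.421), 5 each way for the other comparisons, up to 4 members of each list with the largest called difference, and Cdkn1a, Mdm2, Ccng1 and Plk1, passing over predicted genes. Other list members were named for their role after their values were seen. Promoter sequences come from RefSeq GRCm38.p6. Alternatives tried were an offset before log2, quantile normalization or median-centring of the arrays, other filters on dim genes, the mean of all probes, only the arrays compared, the untreated arrays of both arms, a replicate block and each of the 4 day 1 and untreated SCCVII arrays of the carbon-ion arm left out.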

Additional observations from a re-analysis of the deposited data

Results flagged for a closer look

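The day 1 response of SCCVII to carbon ions differed from its response to gamma rays, by a test of the difference itself, for 2090 genes. The largest positive differences (carbon minus gamma, log2) were those of Ino80b at 3.93, Gzmf at 3.34, Gbp8 at 3.14, Calhm6 at 2.99 and Cxcl2 at 2.77. The largest negative ones were those of Retnla at -6.23 and of the muscle genes Fhl1 at -3.99, Csrp3 at -3.87, Car3, a carbonic anhydrase of muscle, at -3.81 and Xirp1 at -3.67. Between the day 1 arrays of the 2 beams compared directly, without untreated arrays, Gbp8, Calhm6 and Cxcl2 had 3.74, 3.26 and 2.91. Gzmf had 1.20 and Retnla -1.90, and 6545 genes were called.

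The SCCVII response to carbon ions differed from the mean response of NR-S1, NFSa and #8520, again by a test of the difference, for 3472 genes. The largest positive differences were those of Myl2 at 5.03, Gzmf at 4.95, Tnni1 at 4.41, Tnnc1, the slow and cardiac troponin C, at 4.21 and Gzmg at 4.08. Tnnc1 had a value on 1 of the 2 untreated SCCVII arrays. With the untreated arrays of both arms Tnni1 had 5.34 and Gzmg 2.78. The largest negative ones were those of Retnla at -4.28, Retnlg at -2.81, Slc9b2 at -2.26, Akr1c18, a progesterone-metabolising reductase, at -2.17 and the histone gene H4bc24 at -1.97. Against the untreated arrays of both arms Retnla had -1.44 and Retnlg -1.88, and Akr1c18 was not called (-1.03, limma adjusted p = 0.078). Groups of 2 arrays were too small to test single arrays as outliers.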

How the results depend on the processing

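Of 137 genes named for day 1 against untreated, 116 kept their direction and their side of the threshold under all alternatives run, 20 lost the call under at least 1 and 3 changed sign. Against the untreated arrays of both arms, the day 1 count was 5846 (2897 higher, 2949 lower) in place of 3881, the carbon minus gamma count 6545 (2521 higher, 4024 lower) in place of 2090, and the count against the other tumours 5428 (2137 higher, 3291 lower) in place of 3472. For carbon minus gamma that setting cancels the untreated arrays and compares the day 1 arrays directly. In that setting the day 1 log2 difference became 0.48 for Trp63, -0.29 for Pkm and -0.23 for Plk1, and the carbon minus gamma difference became -0.02 for Ino80b, 0.55 for Fhl1, 0.02 for Csrp3, 0.08 for Car3 and 0.28 for Xirp1. The cause was not tested. With only the arrays compared, the carbon minus gamma count was 1257, a fit with fewer arrays. The count between the untreated arms was 4009 with the dimmest 50% of genes left out, which tests fewer genes.

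Only the 4 day 1 and untreated carbon-arm arrays of SCCVII were left out in turn, and no 6 h, day 3, gamma-arm or other tumour's array was. This gave 2735 to 3107 calls for day 1 against untreated, 2416 to 3793 against 6 h (2416 without day 1 array 1 and 2461 without day 1 array 2), 1870 to 2784 for day 3 against day 1, 1463 to 1805 for carbon minus gamma, 2305 to 2956 for SCCVII against the other tumours (2305 without day 1 array 1) and 4868 to 6229 between the untreated arms. The highest counts, 3793 and 2784, came from leaving out untreated arrays that are not in those comparisons, and 6229 from day 1 arrays, which are not in the comparison of the arms. Insl5, which fell by 1.40, was not called without day 1 array 2 (-1.15, limma adjusted p = 0.17) or without untreated array 2 (-1.20, adjusted p = 0.14).

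The replicate number as a replicate block gave 3796 calls for day 1 against untreated, 3593 against 6 h, 2615 for day 3 against day 1 and 3306 against the other tumours. The crossed pairing, chosen after seeing the data, gave 3905. Centring each array on its median gave 1589 higher and 2403 lower for day 1 against 6 h, 839 and 1652 for carbon minus gamma, 1249 and 2573 against the other tumours and 3557 and 2746 between the untreated arms. Without detection flags, signal over background cannot be given, and 2 arrays a group limit every test.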

Other observations

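Gene lists beyond those of the report are given for day 1 against untreated SCCVII, with 17.8% of all genes called higher and 11.1% lower. Of 24 tested NRF2 and oxidative stress genes 12 rose and 0 fell (median log2 difference 0.33), with the glutathione transferase Gstm2 at 1.68, the metallothionein Mt1 at 1.03 and the heme oxygenase Hmox1 at 0.96. Of 12 tested complement genes 7 rose and 0 fell (median 0.42), with the complement inhibitors Cd55 at 1.71 and Serping1 at 1.67 (2.27 against the untreated arrays of both arms) and factor B, Cfb, at 1.39. Of 20 tested matrix proteases and inhibitors 10 rose and 2 fell (median 0.32), with Adamts5 at 0.95 (1.77 against both arms) and Mmp19 at 0.85. Mast cell markers were divided, with 5 of 10 higher and 2 lower; Hdc, which makes histamine, had 2.07, and the chymases Cma1 and Mcpt4 had 0.88 and 0.77.

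Genes of the unfolded protein and integrated stress response were also divided, with 2 of 25 higher, 6 lower and a median of -0.20. With the untreated arrays of both arms 3 were higher and 12 lower (median -0.22). The stress factors Ddit3 and Atf3 rose by 0.91 and 0.84 and the amino acid gene Asns fell by 0.80. Of 27 hypoxia and glycolysis genes 8 rose and 1 fell (median 0.15), and the count higher was 4 without day 1 array 1, 5 without day 1 array 2 and 5 without untreated array 2. Against both arms 4 rose and 5 fell, and with centred arrays 5 rose and 3 fell. Of 23 immediate-early genes 8 rose and 0 fell with a median of 0.12, which was -0.004 with 6 higher and 4 lower when arrays were centred, and against both arms 4 rose and 7 fell. Of 6 tested histone genes 3 fell (median -0.38), of 10 B cell markers 5 rose and 1 fell (3 rose without day 1 array 1, day 1 array 2 or untreated array 1), and of 7 adipocyte markers 5 rose and 1 fell (3 rose without day 1 array 2), with the lipase Lpl at 1.55 and the fatty acid carrier Fabp4 at -0.67. Of 3 tested red cell genes Tfrc, the transferrin receptor, fell, and the summed intensity of the 5 red cell genes with a probe was 3.94 to 4.17 at day 1 and 5.64 to 6.26 in untreated tumours.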
